A study of Solanum lycopersicum with 12 samples.

Results

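The enzymes described here are the superoxide dismutases of tomato (Solanum lycopersicum) and the chaperones that handle copper beside them: SODCP.2, SODCC.1, FESOD, CCS and CCH. These 5 genes, of the 801 that the array's annotation names, were found by their symbols and are measured by 6 probe sets, since FESOD has 2. Those are called FESOD-3014 and FESOD-4233 here, after the cluster number in their identifiers. The genes were chosen on measured values, because the differences between the leaf arrays with and without cadmium (Cd) were known, with a low SODCP.2 and CCS and a high CCH. For that reason the leaf differences of the members are given as a description with no test. The tests below concern the root arrays and the comparison of the organs without Cd. The organ comparison shares its leaf control arrays with that choice of genes.

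The study put leaf and root RNA of tomato plants on 12 single-channel Affymetrix arrays, 1 sample to an array. By title the arrays form 4 groups of 3: leaf Cd, leaf control, root Cd and root control. The source label of the 3 arrays titled leaf Cd calls those leaves untreated, so every leaf difference rests on the titles. The labels give neither dose, time, age nor cultivar, and do not say that the 3 arrays of a group are separate plants, so p-values measure only the spread between arrays, which may be technical. The samples are labelled by organ, not by cell type, so fewer cells of a type and less RNA per cell cannot be told apart.

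Superoxide dismutases turn superoxide into hydrogen peroxide and oxygen. Plants keep copper/zinc forms in the cytosol and in the chloroplast, and an iron form in the chloroplast. The copper chaperone CCS loads copper into the copper/zinc enzymes, and CCH is a plant copper chaperone related to yeast ATX1. In Arabidopsis, plants short of copper hold less copper/zinc superoxide dismutase and CCS, through the microRNA miR398, and more of the iron enzyme, which spares copper for plastocyanin. Cadmium itself does not cycle between redox states, but superoxide and peroxide build up in plants exposed to it.

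Values are the deposited log2 expression of a probe set, and a difference of 1 is a factor of 2. Array medians lay between 6.85 and 6.89 on the leaf arrays and between 7.46 and 7.50 on the root arrays, so comparisons between organs use values less the array's median. Background, the highest of 23 negative control probe sets, lay between 2.69 and 3.01 on leaf arrays and between 3.13 and 3.57 on root arrays. All 72 values of the members (6 probe sets on 12 arrays) were above it. Among markers of green tissue, 8 of 8 were higher in leaf control than in root control arrays. They were far from absent in roots: their summed linear (unlogged) level was 17536 to 33280 on root control arrays, against 35558 to 38575 on leaf control arrays. Of 7 root markers, 4 were lower in leaf controls (ST1, FER, ext1 and PT2, all at background there), and FRO1 was higher. Array leaf Cd 3 stood apart, with an estimated weight of 0.155 against 0.668 to 1.60 on the other leaf arrays, and leaf values without it are given below. On root arrays the weights were 8.12 for root control 1 and 5.60 for root Cd 1, against 0.518 to 1.34 for the others.

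SODCP.2 encodes the copper/zinc enzyme of the chloroplast and had the widest range of the 5 genes. Its log2 values were 7.26, 7.42 and 7.66 on leaf Cd arrays, against 11.23, 11.33 and 10.97 on leaf control arrays. Every leaf Cd array was thus more than 3 log2 units below every leaf control array. The means were 7.45 ± 0.20 and 11.18 ± 0.18 (SD, n = 3 each), a difference of -3.73 (SE 0.20), or 13.28-fold lower in leaf Cd. Only 1 of the 10038 probe sets tested had a lower leaf difference. Without leaf Cd 3 the difference was -3.84. In roots the values were 7.03, 6.54 and 7.40 with Cd, against 7.83, 7.84 and 7.91 in controls. The root groups did not overlap, and the control arrays lay much closer together than the Cd arrays. SODCP.2 fell by 0.87 on the log2 scale in root Cd (SE 0.20, 1.83-fold lower; limma, adjusted p = 0.0447). This call was lost in 11 of 18 alternative settings, with adjusted p up to 0.147. The difference was below 0 in all 18, though some settings, such as leaving out a leaf array, cannot move it. Without root Cd 2 the difference was -0.65.

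**Figure D1:**
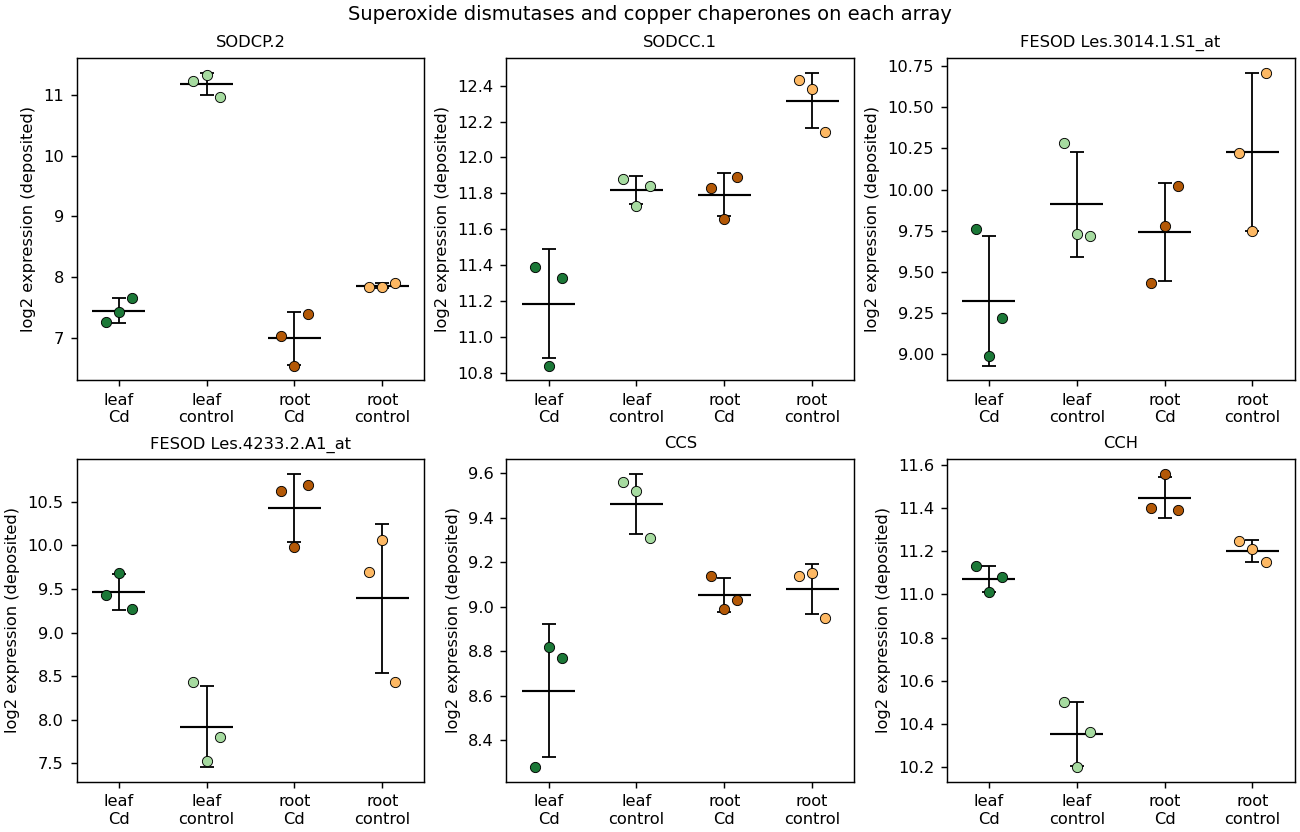
Deposited log2 expression (y axis) of the 6 probe sets on each of the 12 arrays, by group (x axis), with the group mean (horizontal bar) and SD (whiskers, n = 3). SODCP.2 lies between 10.97 and 11.33 on leaf control arrays and at 7.91 or below on the others, and the CCH values of leaf Cd arrays lie above those of leaf controls.

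Green tissue markers also lay lower in root Cd. All 8 differences were below 0, with a median of -0.98, against a median of 0.02 over all probe sets. CAB4, a chlorophyll-binding protein of the light-harvesting antenna, fell by 2.01 (limma, adjusted p = 0.0401; call lost in 10 of 18 settings), and the other 7 did not pass, though all 8 had an unadjusted p under 0.05, as did 1744 of all 10038 probe sets. The summed linear level of the 8 markers was 11017, 13346 and 16322 on root Cd arrays, against 21278, 17536 and 33280 on root control arrays. Root control 3 had the highest and root control 2 the lowest of these control sums, while SODCP.2 was 7.91 and 7.84 there. In leaves the summed level was 28676, 33752 and 33932 with Cd, against 38288, 38575 and 35558 in controls, with 0 of 8 markers past the threshold (limma; 0 also at an unadjusted p under 0.05, against 1931 of 10038 probe sets). Their median difference in leaf was -0.20, with 7 below 0 and 1 above, beside -3.73 for SODCP.2. The lowest were CAB5 at -1.45 (SE 0.74) and CAB4 at -0.57 (SE 0.45), whose leaf groups did not overlap. The part of green tissue in the SODCP.2 differences was not tested.

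SODCC.1, the cytosolic copper/zinc superoxide dismutase, was lower with Cd in both organs by a similar, smaller amount. Leaf Cd arrays had 11.39, 10.84 and 11.33, against 11.88, 11.73 and 11.84 on leaf control arrays. The leaf groups did not overlap, and leaf Cd 2 was lowest. The leaf difference was -0.63 (SE 0.16, 1.54-fold lower), and -0.70 without leaf Cd 3. Root Cd arrays had 11.83, 11.66 and 11.89, against 12.43, 12.38 and 12.14 on root control arrays. These groups did not overlap either, but the difference of -0.53 (SE 0.16, 1.44-fold lower) did not pass the test over all probe sets (limma, adjusted p = 0.105).

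CCS, the chaperone that gives copper to both copper/zinc enzymes, was lower with Cd on the leaf arrays. Its values were 8.28, 8.82 and 8.77 in leaf Cd, against 9.56, 9.52 and 9.31 in leaf control. The groups did not overlap, and leaf Cd 1 was lowest. The difference was -0.84 (SE 0.16, 1.79-fold lower), and -0.92 without leaf Cd 3. In root Cd the values were 9.14, 8.99 and 9.03, against 9.14, 9.15 and 8.95 in root control. The groups overlapped, with a difference of -0.03 (SE 0.16; limma, adjusted p = 0.966). Whether the leaf and root differences of CCS differ from each other was not tested, since the leaf values chose the gene.

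CCH, the other copper chaperone, was the member that lay higher with Cd on every array of both organs. Leaf Cd arrays had 11.13, 11.01 and 11.08, against 10.50, 10.20 and 10.36 on leaf control arrays. The leaf groups did not overlap, and the difference was 0.72 (SE 0.11, 1.65-fold; 0.71 without leaf Cd 3). Root Cd arrays had 11.40, 11.56 and 11.39, against 11.25, 11.21 and 11.15 in root control. The root groups did not overlap, but the difference of 0.25 (SE 0.11, 1.19-fold) did not pass (limma, adjusted p = 0.300).

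**Figure D2:**
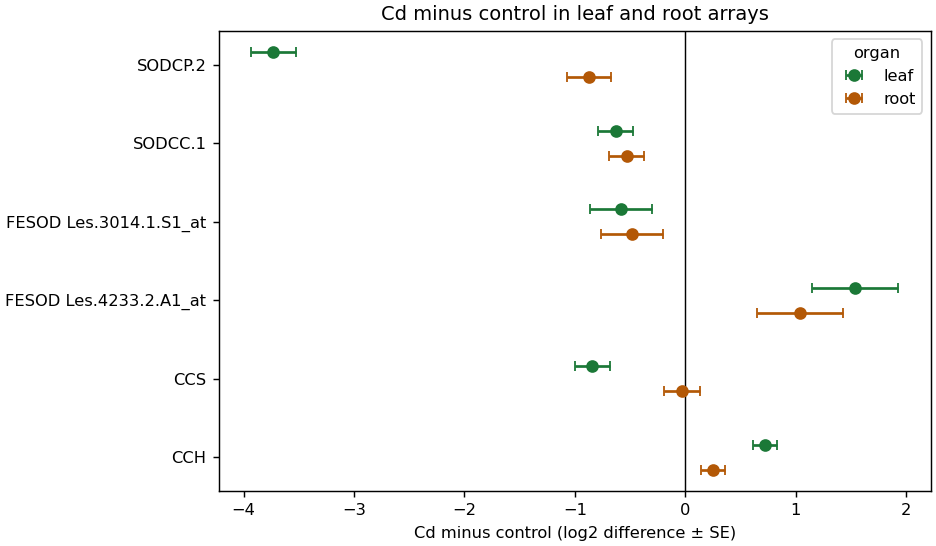
Cd minus control (x axis, log2 difference with SE bars) of the 6 probe sets (rows) in leaf (upper point of each row) and root (lower point). SODCP.2 lies at -3.73 in leaf and -0.87 in root, CCS at -0.84 and -0.03, and the 2 FESOD probe sets lie on opposite sides of 0 in both organs.

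FESOD, the iron superoxide dismutase, had 2 probe sets that disagreed in sign, so no direction is given for the gene. FESOD-3014 had 9.76, 8.99 and 9.22 on leaf Cd arrays, against 10.28, 9.73 and 9.72 on leaf control arrays. Leaf Cd 1 overlapped the controls, and the difference was -0.58 (SE 0.28). On root Cd arrays it had 9.43, 9.78 and 10.02, against 10.22, 9.75 and 10.71 in root control. These groups overlapped too, with a difference of -0.48 (SE 0.28; limma, adjusted p = 0.444), which was -0.24 without root control 3.

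The other FESOD probe set, FESOD-4233, was high with Cd. It had 9.43, 9.68 and 9.27 on leaf Cd arrays, against 8.43, 7.53 and 7.80 on leaf control arrays. The leaf groups did not overlap, and the difference was 1.54 (SE 0.39, 2.92-fold), or 1.64 without leaf Cd 3. On root Cd arrays it had 10.62, 9.98 and 10.69, against 9.69, 10.06 and 8.43 in root control. Root control 3 was lowest and root control 2 overlapped the Cd arrays. The difference of 1.04 (SE 0.39) did not pass (limma, adjusted p = 0.188) and was 0.55 without root control 3. On that array FESOD-3014 had its highest root value, 10.71.

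Another probe set, called Unnamed-4233 here, shares the cluster number of FESOD-4233 but has no gene in the annotation. It was looked at after the FESOD values were seen. It lay between 7.89 and 8.23 on leaf Cd arrays, against 5.83 to 6.79 on leaf control arrays. On root Cd arrays it lay between 8.29 and 9.46, against 6.85 to 8.55 in root control, again lowest on root control 3. Its highs and lows followed those of FESOD-4233, with a Pearson r of 0.991 over the 12 arrays after array medians and organ means were taken off. Between the 2 FESOD probe sets the same measure was -0.694. Both coefficients are descriptions: the 12 arrays share organs and treatments. Which probe set follows the FESOD transcript was not tested.

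**Figure D3:**
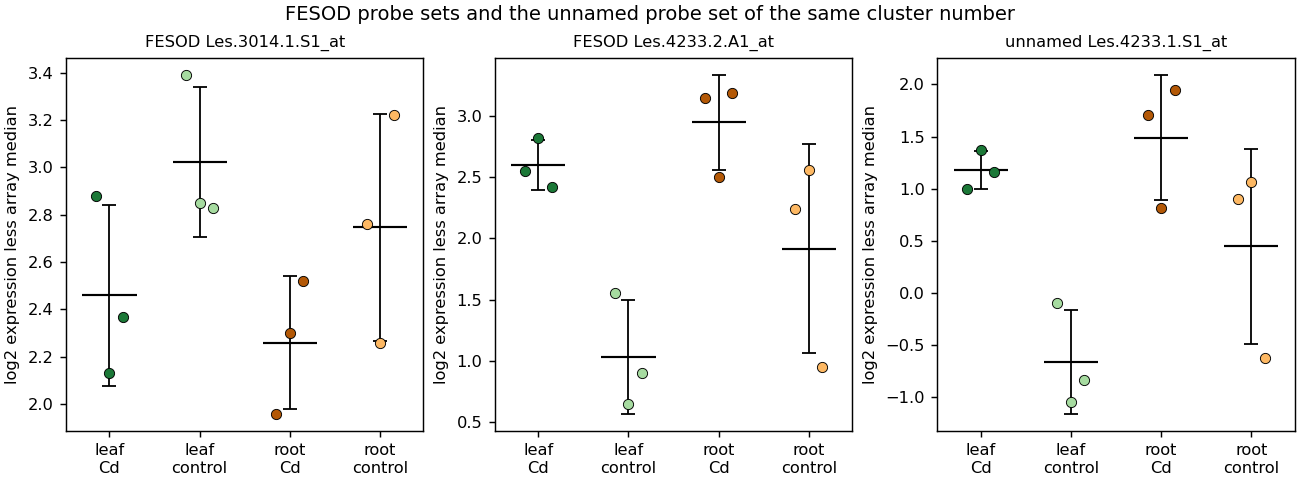
Log2 expression less the array median (y axis) of the 2 FESOD probe sets and of the unnamed Unnamed-4233, by group (x axis), with each array as a point, the mean (bar) and the SD (whiskers, n = 3). FESOD-3014 has group means of 2.46 in leaf Cd and 3.02 in leaf control, while FESOD-4233 has 2.60 and 1.03.

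Counted over probe sets, 1 of 6 passed in root, lower with Cd, where 3.03% of all probe sets passed (1.07% higher and 1.96% lower). The root groups did not overlap in 3 of 6, 1 higher and 2 lower, against 27.4% of all probe sets (13.5% higher and 13.9% lower). In leaf the groups did not overlap in 5 of 6, 2 higher and 3 lower, against 21.7% of all (13.8% higher and 7.86% lower). Adjusted calls in leaf came to 3.78% of all probe sets (2.23% higher and 1.54% lower). The leaf contrast chose the genes, so nothing is read from their leaf count. The median difference of the 6 probe sets was -0.26 in root, against 0.02 over all probe sets. In leaf the median was -0.61, and nothing is read from it for the same reason. Both medians include the 2 FESOD probe sets, which have opposite signs.

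**Figure D4:**
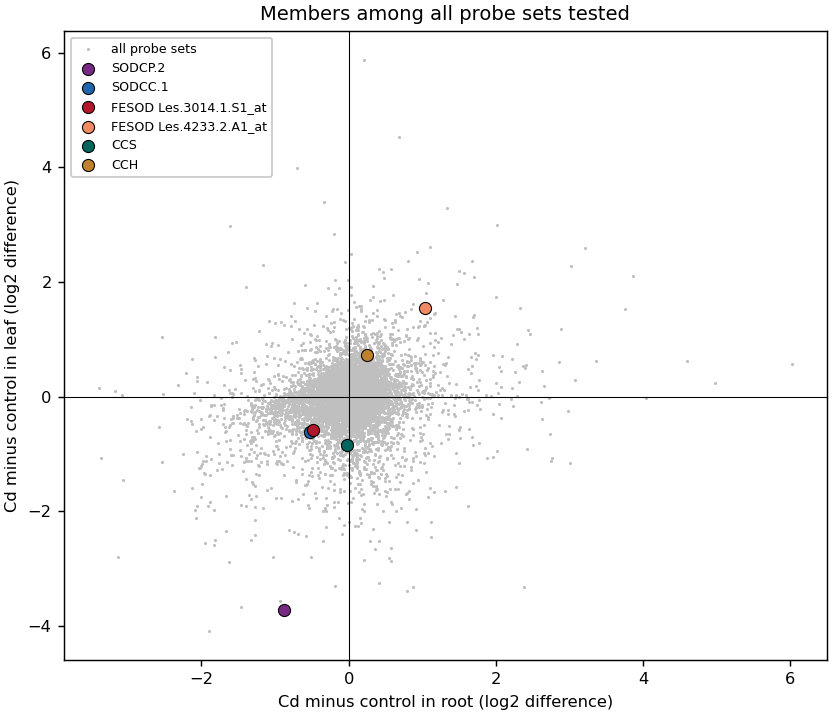
Cd minus control in leaf (y axis) against Cd minus control in root (x axis), as log2 differences, for the 10038 probe sets tested (grey) and the 6 member probe sets (coloured). SODCP.2 is at the lower edge of the leaf axis with -3.73, SODCC.1 and FESOD-3014 overlie each other near -0.6 in leaf and -0.5 in root, and FESOD-4233 is at 1.54 and 1.04.

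The organs were then compared without Cd, on values less the array median. SODCP.2 averaged 4.29 ± 0.19 in leaf control and 0.38 ± 0.04 in root control (SD, n = 3 each), 15.02-fold higher in leaf (limma, adjusted p = 9.04e-08). CCS averaged 2.58 ± 0.15 in leaf control and 1.60 ± 0.12 in root control, 1.96-fold higher in leaf (adjusted p = 0.000756). These leaf control arrays also entered the leaf contrast that chose the genes. That choice favours high leaf control values for SODCP.2 and CCS and low ones for CCH, so the p-values of these genes here are not independent of it. On the deposited scale, which shifts every difference by -0.59, the log2 differences were 3.32 for SODCP.2 and 0.38 for CCS, and both still passed. The other 4 probe sets did not pass: SODCC.1 differed by 0.09 (adjusted p = 0.680), CCH by -0.26 (adjusted p = 0.0886), FESOD-3014 by 0.27 (adjusted p = 0.453) and FESOD-4233 by -0.88 (adjusted p = 0.0868). On the deposited scale 3 of these 4 passed, all lower in leaf control: SODCC.1 (-0.50, adjusted p = 0.0151), whose sign turned, CCH (-0.85, adjusted p = 9.03e-05) and FESOD-4233 (-1.47, adjusted p = 0.00590). The sign of FESOD-3014 also turned there (-0.32, adjusted p = 0.324). CCH passed with array weights and quantile normalization too, and FESOD-4233 with array weights (-1.28) and without root control 3 (-1.37). Of all probe sets 43.3% passed (21.3%, or 2140, higher and 21.9%, or 2203, lower in leaf), so a count of 2 of 6 is near the background. The organs did not overlap in 3 of 6, 2 higher and 1 lower in leaf, against 62.8% of all (29.5% higher and 33.3% lower). On the deposited scale the split was 999 higher and 6119 lower.

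With Cd the organs were closer for SODCP.2, as a description. Less the array median it averaged 0.58 ± 0.22 on leaf Cd arrays and -0.49 ± 0.42 on root Cd arrays, without overlap; on the deposited scale the groups overlapped. The order of its 4 groups less the array median was leaf control, leaf Cd, root control and root Cd, and leaf Cd overlapped root control. On the deposited scale root control came ahead of leaf Cd. CCS had the order leaf control, leaf Cd, root control and root Cd less the median, and only leaf control was apart from its neighbour. For CCS as deposited, leaf Cd came last, apart from root Cd. Less the median, SODCC.1 had both control groups ahead of both Cd groups, with leaf and root overlapping within each. As deposited, its order was root control, leaf control, root Cd and leaf Cd, where only leaf control and root Cd overlapped. Less the median, CCH ran leaf Cd, root Cd, root control and leaf control, each apart from the next. On the deposited scale CCH had both root groups ahead of both leaf groups. Neighbouring groups of both FESOD probe sets overlapped less the median, FESOD-3014 with the controls ahead and FESOD-4233 with the Cd groups ahead.

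Another list holds genes that remove hydrogen peroxide, the product of superoxide dismutase, or that restore the ascorbate used in doing so. None of the 9 listed genes of peroxide scavenging and the ascorbate-glutathione cycle passed in leaf or in root (limma, 1 and 2 at an unadjusted p under 0.05). Of all 10038 probe sets, 1931 in leaf and 1744 in root were under that unadjusted threshold. The medians were -0.23 in leaf and -0.07 in root, against 0.02 over all probe sets. APX2, an ascorbate peroxidase, averaged 9.46 ± 0.82 on leaf Cd arrays and 10.55 ± 0.25 on leaf control arrays, a difference of -1.09 (adjusted p = 0.0923; -0.62 without leaf Cd 2). It passed without leaf Cd 3 (-1.35, adjusted p = 0.0413) and with array weights (-1.26, adjusted p = 0.0363). With the replicate number as a block its adjusted p was 0.0443. Another probe set of APX2 had a smaller leaf difference of -0.76. APX1 differed by -0.70 and the monodehydroascorbate reductase MDHAR by -0.59 in leaf. DHAR1 lay higher there, by 0.33 (limma, adjusted p = 0.557), and its groups did not overlap. Of the 9 differences, 3 were above 0 and 6 below in each organ. In root the dehydroascorbate reductase DHAR2 averaged 9.79 ± 0.22 with Cd and 10.42 ± 0.27 without (adjusted p = 0.0808). The ascorbate peroxidase APX differed by -0.67 in root (limma, adjusted p = 0.185) and MDHAR by 0.40 (adjusted p = 0.703). Neither gene's root groups overlapped. The catalase CAT2 differed by -0.32 in root and -0.27 in leaf.

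The list of superoxide sources and bypasses held 5 genes, namely NADPH oxidases, the alternative and plastid terminal oxidases and an uncoupling protein. Of these, 1 passed in root and 0 in leaf (limma, 1 in leaf at an unadjusted p under 0.05). The shares over all probe sets were 3.03% in root and 3.78% in leaf. UCP, an uncoupling protein of the inner mitochondrial membrane, rose to 8.06 ± 0.08 in root Cd, against 7.37 ± 0.12 in root control (adjusted p = 0.00941; 0.0535 without root Cd 1). PTOX, the plastid terminal oxidase, averaged 8.65 ± 0.14 on leaf Cd arrays and 7.81 ± 0.41 on leaf control arrays (0.83, adjusted p = 0.0580). The alternative oxidase AOX1a differed by 0.67 in leaf and 0.54 in root, and Wfi1, an NADPH oxidase homologue, by 0.43 and 0.37. RBOH1, another NADPH oxidase, differed by -0.24 in root. It averaged 2.44 on leaf Cd and 2.54 on leaf control arrays, below the leaf background of 2.69 to 3.01. Its leaf difference of -0.10 therefore shows nothing about its level.

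The list of other copper proteins held 2 genes that the annotation names. Neither passed in leaf or root (limma, 0 in leaf and 1 in root at an unadjusted p under 0.05). On this array 9129 probe sets have no gene symbol, so further copper proteins may be measured without a name. The same limit holds for the other gene lists. Plastocyanin (PETE), the copper protein that carries electrons to photosystem I, averaged 11.93 ± 0.31 on leaf Cd arrays and 12.18 ± 0.13 on leaf control arrays, a difference of -0.25 (adjusted p = 0.623). In root it averaged 10.56 ± 0.38 with Cd and 11.50 ± 0.36 without (-0.95, adjusted p = 0.0600). PETE is also a member of the green tissue markers above. The polyphenol oxidase LOC606710 (synonym PPO-A) differed by -0.07 in root. On the probe set used, its leaf difference of 0.02 lies between means of 2.18 with Cd and 2.16 without. Both means are below the leaf background of 2.69 to 3.01. The 3 other probe sets of this gene differed by 0.07, -0.15 and -0.21 in leaf. In root they differed by -0.07, 0.01 and -0.37.

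None of the 7 metal chelation genes passed in either organ (limma; 0 in leaf and 3 in root at an unadjusted p under 0.05, against 1931 and 1744 of all 10038 probe sets). The glutathione synthesis enzymes GSH2 and GSH1 differed by 0.59 and 0.55 in root, and by -0.19 and -0.39 in leaf. In leaf the metallothionein MT2 averaged 6.29 ± 2.46 with Cd and 5.79 ± 1.0 without, a difference of 0.50 that was smaller than its SE of 0.94 (limma, adjusted p = 0.832). MT4 differed there by 0.30 (SE 0.17).

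Of the 4 iron uptake genes, 2 passed in root and 1 in leaf (limma, 3 and 2 at an unadjusted p under 0.05). Over all probe sets 3.03% passed in root and 3.78% in leaf. The 2 genes that passed in root were NRAMP1, a divalent metal transporter (1.60, adjusted p = 0.0120), and FER, the iron-uptake regulator (0.79, adjusted p = 0.0300). Both were higher with Cd. The FER call was lost in 5 of 18 settings and the NRAMP1 call in 2. In leaf NRAMP3, a metal transporter of the same family, rose to 10.90 ± 0.26 with Cd, against 9.68 ± 0.04 without (2.33-fold, adjusted p = 0.00114), and kept its call in 18 of 18 settings. Its root difference was 0.50 (limma, adjusted p = 0.0806, groups not overlapping). FER differed by 0.44 in leaf without overlap, between means of 2.79 and 2.35, near the leaf background of 2.69 to 3.01. NRAMP1 averaged 1.99 and 2.03 there, below that background. FRO1 differed by -0.02 in leaf. Of the 7 root markers, FER among them, 3 passed in root, all higher with Cd, while AMT1-2 (-0.67, adjusted p = 0.0838, groups not overlapping) and FRO1 (-0.39) were below 0. The summed linear level of the 7 was 7970 to 9474 on root Cd arrays, against 4834 to 5820 on root control arrays. The part of this in the root differences was not tested.

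**Figure D5:**
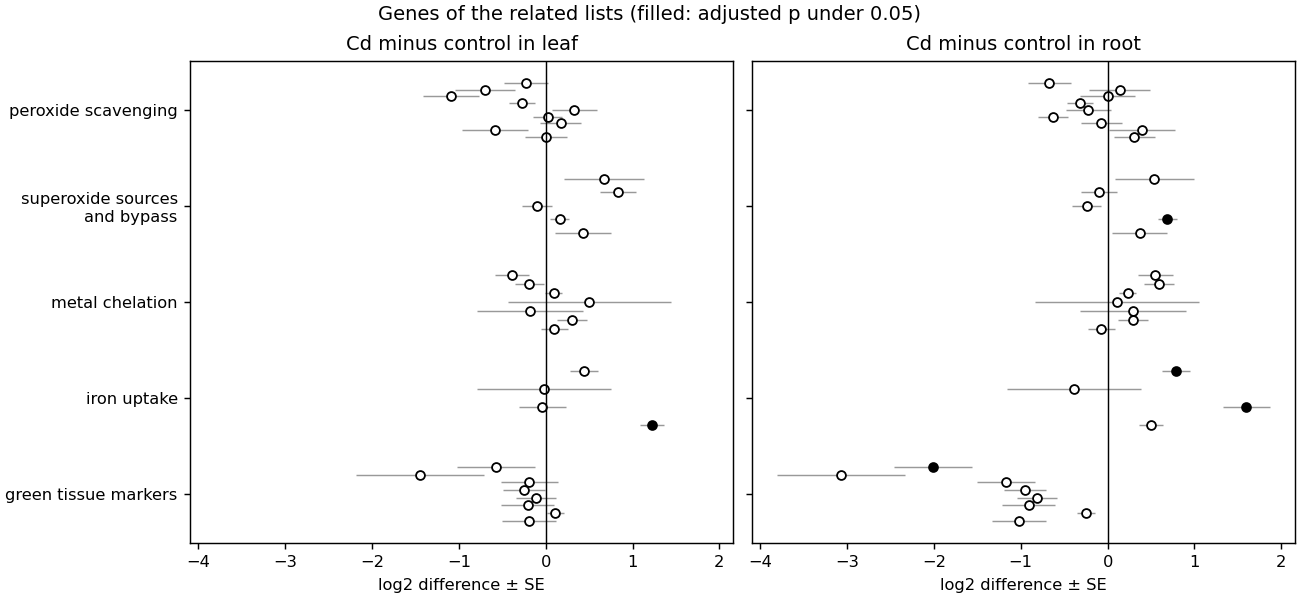
Cd minus control (x axis, log2 difference with SE bars) in leaf (left panel) and root (right panel) for the genes of 5 related lists (rows), each gene a point, filled where the adjusted p was under 0.05. All 8 green tissue markers lie below 0 in root, and the peroxide scavenging genes have no filled point in either organ.

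The genes whose pattern was most like that of each member were sought among the other 800 named genes, by Pearson r over the 12 arrays after array medians and organ means were taken off. This is a description with no p, since the arrays share groups and the Cd difference of each organ dominates the measure, so that members chosen for their leaf differences are alike or opposite by that choice. For SODCP.2 the closest were PSY2, a phytoene synthase of carotenoid synthesis (r = 0.950), the subtilisin-like protease SBT2 (0.900), CCS (0.887), the light-signalling factor HY5 (0.882) and the ethylene receptor ETR5 (0.853). PSY2 had leaf and root differences of -1.76 and -0.99. SODCC.1 was closest to HY5 (0.968), the carotene hydroxylase CrtR-b1 (0.949), t19-8 (0.918), PSY2 (0.881) and CIP1 (0.870).

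CCS was closest to the expansin EXP2 (0.919), ETR5 (0.888), SODCP.2 (0.887), the gibberellin oxidase GA20OX1 (0.874) and XTH7, a xyloglucan-modifying enzyme of the cell wall (0.854). EXP2 differed by -3.40 in leaf and 0.79 in root. CCH was closest to EIL2, a transcription factor of ethylene signalling (0.912), NRAMP3 (0.912), the mitochondrial small heat shock protein MTSHP (0.898), LOC544070 (0.892) and the ACC oxidase ACO5 (0.883). MTSHP differed by 2.19 in leaf and 1.49 in root, and ACO5 by 5.88 and 0.21.

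The FESOD probe sets had different neighbours. FESOD-3014 was closest to CAT2 (0.796), the haemoglobin GLB2 (0.790), the arginine decarboxylase ADC (0.780), the violaxanthin de-epoxidase VDE (0.768) and the lycopene cyclase CRTL-E-1 (0.747). FESOD-4233 was closest to ST3 (0.932), ASCL (0.921), MTSHP (0.910), ER1 (0.884) and GST-T4 (0.874). ST3 differed by 0.97 in leaf and 0.75 in root. MTSHP thus stood among the 5 nearest of both CCH and FESOD-4233, and no gene was shared by the 2 FESOD probe sets.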

How the data were processed

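The deposited table holds the authors' log2 expression per probe set for 12 arrays (1.55 to 13.29); per the submitters' processing notes, MAS5 and RMA were used, without version or role. Build and annotation are not given in the sources used here. Of 10209 probe sets, 171 controls were left out. Names come from the array's annotation (909 of 10038 probe sets); all 5 members matched a current gene record. Other lists use, for each gene, the probe set with the highest mean; PRO1, shared by several gene records, and RAN1, a Ran GTPase matched by name to the copper list, were left out.

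Group means were fitted with limma 3.58.1 (R 4.3.3) over 12 arrays, with two-sided p-values adjusted by Benjamini-Hochberg over 10038 probe sets and a threshold of 0.05; tables and plots used Python 3.11.15. The fit was tested on simulated data. Members, lists and rules were chosen with earlier results of these data known. Up to 4 members of each related list were to be named by size of difference, and 5 genes for each likeness ranking; list genes singled out beyond that were chosen after their values were seen. Deviations of same-numbered arrays from their group means correlated at 0.35, 0.42 and 0.12 in leaf, and at 0.00, -0.26 and 0.06 in root. Arrays with different numbers were not compared, so whether the titles' numbers pair the arrays was not tested.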

Additional observations from a re-analysis of the deposited data

How the results depend on the processing

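The 6 leaf differences of the members kept their sign and moved by less than the array spread in all 18 alternatives each. They ran from -3.84 to -3.64 for SODCP.2, -0.94 to -0.67 for CCS and 0.64 to 0.79 for CCH. Many of these agreements were fixed in advance. Leaving out a root array, keeping only probe sets above background, fitting leaf arrays alone and the replicate block cannot move a leaf difference. In root, SODCP.2 lay between -1.08 and -0.65 with an array left out (adjusted p up to 0.147), and its call was lost without any 1 of the 3 root controls, root Cd 1, root Cd 2, the 3 leaf controls or leaf Cd 2. It also lost its call with the 6 root arrays alone (0.0943) and with the replicate block (0.0647). CCS in root lay between -0.10 and 0.01, not below 0 when root control 1 (0.00), root control 2 (0.01) or root Cd 2 (0.00) was left out. Array weights, highest for root control 1 and root Cd 1, brought SODCC.1 (-0.59), FESOD-3014 (-0.68), FESOD-4233 (0.89) and CCH (0.17, adjusted p = 0.0461) past the threshold in root. Between organs, SODCC.1 was -0.50 on the deposited scale, -0.03 with array weights, -0.15 after quantile normalization and 0.00 to 0.15 with an array left out; FESOD-3014 was -0.32 on the deposited scale. CCH passed with array weights (-0.34, adjusted p = 0.00346) and quantile normalization (-0.37, adjusted p = 0.0203), and FESOD-4233 with array weights (-1.28, adjusted p = 0.00130) and without root control 3 (-1.37, adjusted p = 0.00455); both also passed on the deposited scale, as did SODCC.1. Over all probe sets, the root count of 304 became 3745 with array weights, 202 with root arrays alone and 85 to 409 with an array left out. It was 118 without root control 1, 123 without root control 3, 85 without root Cd 1 and 136 without root Cd 2. The leaf count of 379 became 65 with leaf arrays alone and 127 to 589 with an array left out (127 with leaf control 2 left out, 179 with leaf control 3 and 589 with leaf Cd 3). The organ count of 4343 became 7118 on the deposited scale. With the replicate block 421 passed in root and 376 in leaf. In leaf, of the genes compared under it, the block changed the call of APX2 and no other. In root the block also took away the calls of CAB4, FER and ext1 and added those of CAB5 and PETE. Array weights also brought PETE, DHAR2, GSH2 and CAB5 past the threshold in root. Leaving out an array did so for PETE (root Cd 3 or leaf Cd 1), DHAR2 (root Cd 3), GSH2 (leaf Cd 3) and CAB5 (root control 2). PTOX passed in leaf without leaf control 1 (1.02) and with arrays centred on their medians (0.85, adjusted p = 0.0466). Fits to 1 organ and the block were not run between organs. The cause of these changes was not tested. The number of arrays limits the precision.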

Other observations

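Of the 7 root markers, ST1, FER and ext1 rose in root Cd (limma, adjusted p = 0.0159, 0.0300 and 0.0142), and these calls were lost in 3, 5 and 5 of 18 settings. The other 4 did not pass: PT1 and PT2 differed by 0.59 and 0.65, AMT1-2 by -0.67 and FRO1 by -0.39.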
